A study of Homo sapiens with 6 samples.

Results

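The core clock repressors and the PAR bZIP output factors were followed as a set of 10 genes, DBP, TEF, PER1, PER2, PER3, CRY1, CRY2, NR1D1, NR1D2 and BHLHE40. They were listed by name and found by symbol through the Ensembl identifiers of the deposited files. All 10 were present among the 16574 genes kept, and all 10 passed the filter on low values, which asked for 1 FPKM or above in 3 libraries at the least. FPKM relates the fragments of a gene to the length of its transcript and to all fragments of the library.

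The cells were Nthy-ori 3-1, a human thyroid follicular epithelial line immortalised with a viral oncogene and labelled as wild type. One group of 3 libraries came from cells exposed for 27 days to 2.5 µM BDE209, decabromodiphenyl ether, a brominated flame retardant. The control group of 3 libraries came from cells given its solvent, DMSO, in the same volume and for the same 27 days. The line is a single culture-adapted population, and nothing in the labels says that each replicate had its own culture, so the p-values cover the spread between these libraries alone, which may be technical. The hour of harvest and any synchronisation of the cells are not given in the labels.

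The circadian clock is a transcription loop that runs in most cell types. CLOCK or its relative NPAS2 pairs with BMAL1 on E-box sequences and switches on the PER and CRY genes, whose proteins return to the nucleus and repress their own activator. A second loop runs through the nuclear receptors NR1D1 and NR1D2, which repress BMAL1 from elements that the ROR receptors activate. The PAR bZIP factors DBP, TEF and HLF carry the rhythm to output genes through D-box sequences, where NFIL3 acts as the opposing repressor, and BHLHE40 competes with CLOCK and BMAL1 at E-boxes. Messenger levels in a bulk culture average over cells whose clocks may stand at different phases, and fewer cells expressing a gene cannot be told apart from less RNA per cell.

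BHLHE40 was the most abundant of the set and PER1 the least. In DMSO, BHLHE40 read 46.9 ± 0.233 FPKM (SD, n = 3), NR1D2 18.6 ± 6.24 and NR1D1 12.5 ± 4.37. CRY1 and PER3 followed at 8.81 ± 0.280 and 8.80 ± 2.64, and TEF stood at 5.34 ± 1.68. The lowest 4 were CRY2 at 2.12 ± 0.567, DBP at 2.11 ± 1.06, PER2 at 1.32 ± 0.357 and PER1 at 1.19 ± 0.359. In this order the DMSO ranges of neighbours were separate at 2 steps, between BHLHE40 and NR1D2 and between TEF and CRY2. At every other step they overlapped, although NR1D2 was above NR1D1, PER3 above TEF, DBP above PER2 and PER2 above PER1 in 6 of 6 libraries. CRY1 and PER3 changed order with the library, CRY1 being the higher in 3 of 6.

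**Figure D1:**
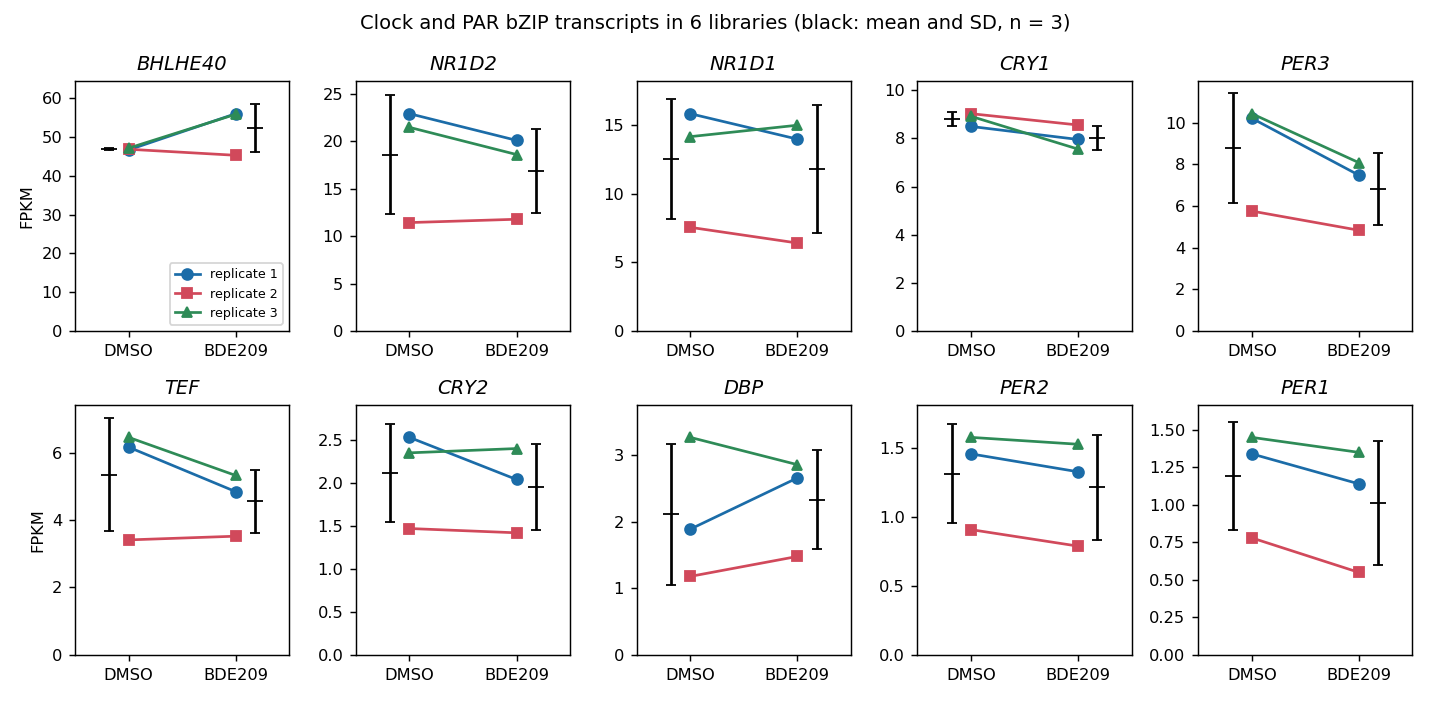
FPKM of the 10 genes in DMSO and BDE209, with lines joining libraries of the same replicate number and black bars for the mean and SD of 3. In 8 of the 10 panels both replicate 2 libraries (red squares) lie below the other 4; CRY1 and BHLHE40 are the exceptions.

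The labelled tissue was checked on marker lists. Of 8 follicular genes, 6 stayed under 1 FPKM in every library, among them TG, TSHR and PAX8, and HHEX was the highest at 4.83 to 7.62. All 6 fibroblast or mesenchymal markers passed the filter, with a summed level of 1427 to 4162 FPKM with DMSO and 1376 to 4044 in BDE209. COL1A1 and COL1A2 made up most of that sum, and both were far lower in replicate 2. COL1A1 read 862.58 (DMSO) and 787.17 (BDE209) FPKM there, against 2270.48 to 2559.9 in replicates 1 and 3. Between BDE209 and DMSO single markers went both ways. LUM stood at 2.92, 1.35 and 3.02 times DMSO in replicates 1, 2 and 3 and DCN at 2.33, 1.13 and 2.13 times, with every BDE209 value above every DMSO value, while COL3A1 stood at 0.284, 1.32 and 0.279 of DMSO. The limma adjusted p over all 6 libraries was 1.00 for each of these 3. COL3A1 read only 0.93 (DMSO) and 1.23 (BDE209) FPKM in replicate 2. In DMSO replicates 1 and 3 it read 26.52 and 25.84, so its ratio in replicate 2 rests on low values. In a fit without replicate 2, of 2 libraries against 2, the log2 differences were 1.46 for LUM, 1.10 for DCN and -1.70 for COL3A1. All 3 passed there (limma adjusted p = 0.000327, 0.000993 and 0.000144), where 4.47% of all genes were called as higher and 2.33% as lower. PDGFRB, from the same list, also passed there as lower, at -0.42 (limma adjusted p = 0.0332), with ratios of 0.702, 0.978 and 0.783. COL1A1 and COL1A2 did not pass (limma adjusted p = 0.804 and 0.361). Epithelial markers summed to 150.49 to 178.72 FPKM with DMSO and 118.85 to 155.02 with BDE209. KRT7 and KRT18 made up most of that sum, while EPCAM read 1.06 to 1.21, CDH1 at most 0.25 and KRT19 at most 0.08. Endothelial markers summed to 2.22 to 2.47 with DMSO and 2.66 to 3.36 with BDE209. Immune markers summed to 58.79 to 74.27 and 48.77 to 68.22, nearly all of it CD68, which was lower in each pair at 0.751, 0.919 and 0.830 of DMSO, while PTPRC read at most 0.02. C cell markers summed to at most 0.48. The part of these markers in the values below was not tested. Replicate 2 stood apart in both groups. In 42.6% of the 11223 genes tested both its values were below the other 4, and in 29.8% both were above. Its shift followed transcript length, by a median of 0.35 log2 units in the shortest quartile of genes and -0.40 in the longest. Members are therefore also compared within replicate numbers.

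No member was called as different between BDE209 and DMSO over all 6 libraries. By limma on log2(FPKM + 1), 0 of 10 members had a Benjamini-Hochberg adjusted p under 0.05, against 0.00% of all genes tested. The smallest limma adjusted p of any gene in that fit was 0.9998, so adjusted p-values from it do not set any gene apart. An unadjusted p under 0.05 was found for 0 of 10 members. With the replicate number as a block, 0 of 10 were called against 0.00%, and 1, PER3, had an unadjusted p under 0.05. Of all 11223 genes tested, 176 had one without the block and 1847 with it, so 1 of 10 members is not above the share of all genes. The median difference of the 10 was -0.11 log2 units, against 0.01 over all genes tested. It stood at -0.15, -0.06 and -0.10 in replicates 1, 2 and 3, where 8, 7 and 7 of the 10 members were lower in BDE209. In these pairs 46.8%, 44.4% and 50.1% of all genes tested were lower.

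In all 3 pairs 4 members were lower in BDE209, namely PER1, PER2, PER3 and CRY1, which is 40.0% of the set against 17.3% of all genes tested. No member was higher in all 3 pairs, against 21.9%. Groups without any overlap were found for 0 of 10 members in either direction, against 3.22% of all genes above and 2.00% below. Since the genes were listed with earlier results of these data known, these shares are a description.

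**Figure D2:**
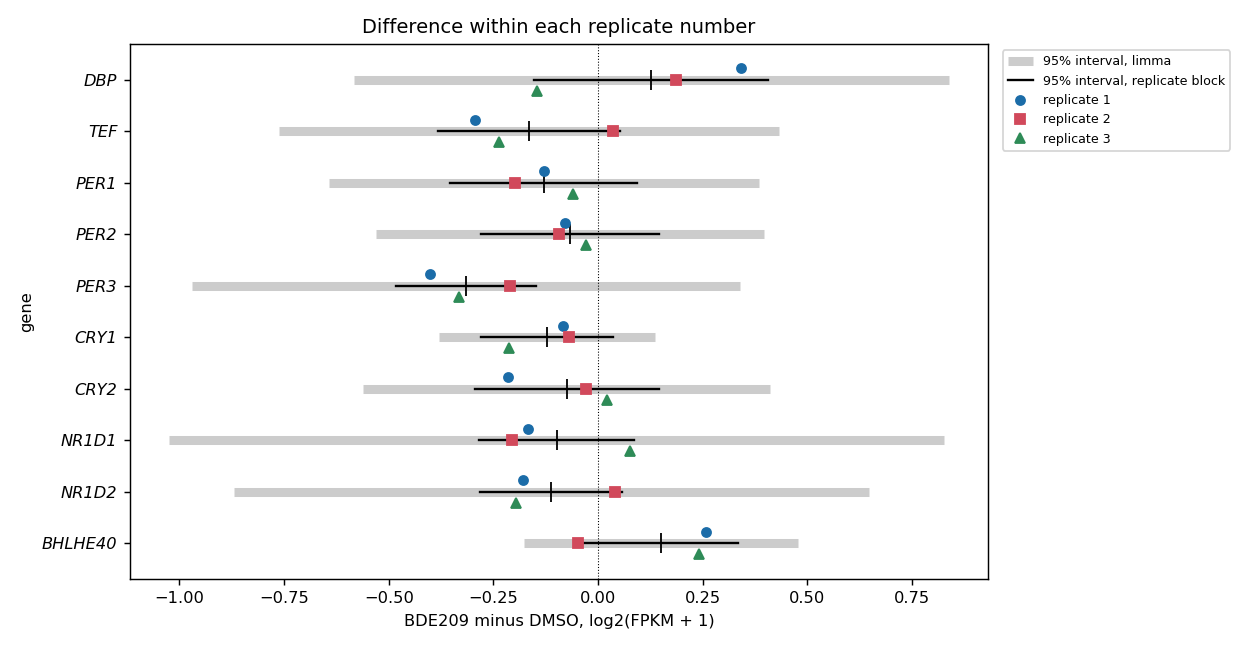
Difference of each gene on the log2(FPKM + 1) scale, BDE209 minus DMSO, within replicates 1, 2 and 3 (symbols), with the mean (tick) and its 95% interval by limma without (grey) and with (black) the replicate number as a block. All 10 grey intervals span 0, and PER3 alone has a black interval, -0.48 to -0.15, that does not. With the block, 1847 of the 11223 genes tested had an unadjusted limma p under 0.05.

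The PER genes encode the repressors that give the loop its delay. PER3 (ENSG00000049246), the most abundant of them, read 10.21, 5.76 and 10.43 FPKM in replicates 1, 2 and 3 of DMSO and 7.48, 4.84 and 8.08 in BDE209. It was lower with BDE209 in every pair, at 0.733, 0.840 and 0.775 of the DMSO value, while DMSO replicate 2 lay below the BDE209 values of replicates 1 and 3, so the groups overlapped. Its log2 difference came to -0.32 (SE 0.271, limma adjusted p = 1.00), the largest in size among the 10 members, and with the block the 95% interval ran from -0.48 to -0.15 (adjusted p = 0.206). In a fit without replicate 2, of 2 libraries against 2, PER3 passed at a difference of -0.37 (SE 0.0817, limma adjusted p = 0.0435). It was the 1 member called there as lower, against 2.33% of all genes, and none was called as higher, against 4.47%. PER3 shares 868 exon bases, or 10.7% of its own, with UTS2 on the opposite strand in GENCODE v29, and UTS2 read at most 0.34 FPKM. It also shares 482 exon bases (5.95%) with Z98884.1, an antisense gene that has no value in these data. The part of either overlap in the PER3 level was not tested.

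PER1 (ENSG00000179094), whose transcription also answers to cAMP and glucocorticoid signals, read 1.34, 0.78 and 1.45 FPKM with DMSO and 1.14, 0.55 and 1.35 in BDE209. PER2 (ENSG00000132326), its close relative, read 1.46, 0.91 and 1.58 and then 1.33, 0.79 and 1.53. Both were a little lower in BDE209 within each number, at 0.705 to 0.931 of DMSO for PER1 and 0.868 to 0.968 for PER2, and in both the 2 replicate 2 libraries were the lowest of the 6. The log2 differences were -0.13 (SE 0.212) and -0.07 (SE 0.192), both with a limma adjusted p of 1.00. At these levels the log2(FPKM + 1) scale shrinks a change, and the interval with the block still allowed PER1 a difference from -0.35 to 0.09.

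CRY1 and CRY2 encode the cryptochromes, the partners of PER proteins that hold CLOCK and BMAL1 inactive. CRY1 (ENSG00000008405) read 8.49, 9.02 and 8.91 FPKM with DMSO and 7.95, 8.55 and 7.55 in BDE209. It was lower in each pair, and the groups overlapped by a single pair of values, BDE209 replicate 2 lying just above DMSO replicate 1. Its log2 difference came to -0.12 (SE 0.108, limma adjusted p = 1.00). CRY2 (ENSG00000121671) read 2.53, 1.47 and 2.35 FPKM and then 2.04, 1.42 and 2.40. It stood at 0.806 of DMSO in replicate 1 and was nearly level in the others, for a log2 difference of -0.07 (SE 0.201).

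Bases upstream of start sites are shown for the 4 members with an E-box there, since CLOCK and BMAL1 act through that sequence, and for PER3, chosen after its values were seen because its difference was the largest. Each run holds the 250 bases before a RefSeq start site in GRCh38.p14, 5′ to 3′ on the gene's strand. TEF lies at chr22:41367205-41367454 (plus strand), PER1 at chr17:8152405-8152654 (minus), NR1D2 at chr3:23945871-23946120 (plus), BHLHE40 at chr3:4979187-4979436 (plus) and PER3 at chr1:7784041-7784290 (plus). Capitals mark matches on either strand to the E-box CACGTG, its variant CACGTT, the D-box TTANGTAA, the ROR element TAGGTCA or the cAMP element TGACGTCA.
TEF: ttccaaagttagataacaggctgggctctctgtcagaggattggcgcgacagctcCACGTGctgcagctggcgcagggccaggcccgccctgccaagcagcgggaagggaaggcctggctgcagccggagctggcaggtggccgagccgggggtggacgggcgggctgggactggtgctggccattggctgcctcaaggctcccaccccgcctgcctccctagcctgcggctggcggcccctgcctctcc
PER1: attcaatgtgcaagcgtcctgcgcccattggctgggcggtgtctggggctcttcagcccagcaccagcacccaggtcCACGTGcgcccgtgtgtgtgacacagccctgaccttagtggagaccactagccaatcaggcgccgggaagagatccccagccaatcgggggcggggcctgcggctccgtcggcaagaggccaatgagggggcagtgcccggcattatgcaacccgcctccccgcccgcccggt
NR1D2: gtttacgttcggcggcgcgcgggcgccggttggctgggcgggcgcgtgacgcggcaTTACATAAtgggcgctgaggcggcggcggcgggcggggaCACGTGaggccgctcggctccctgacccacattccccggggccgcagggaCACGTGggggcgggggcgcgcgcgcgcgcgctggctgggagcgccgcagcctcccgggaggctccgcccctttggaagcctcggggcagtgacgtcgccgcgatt
BHLHE40: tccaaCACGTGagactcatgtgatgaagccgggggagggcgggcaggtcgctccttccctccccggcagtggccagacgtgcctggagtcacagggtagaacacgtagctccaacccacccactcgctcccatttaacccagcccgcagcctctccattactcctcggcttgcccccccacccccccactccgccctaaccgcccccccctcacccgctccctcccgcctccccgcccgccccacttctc
PER3: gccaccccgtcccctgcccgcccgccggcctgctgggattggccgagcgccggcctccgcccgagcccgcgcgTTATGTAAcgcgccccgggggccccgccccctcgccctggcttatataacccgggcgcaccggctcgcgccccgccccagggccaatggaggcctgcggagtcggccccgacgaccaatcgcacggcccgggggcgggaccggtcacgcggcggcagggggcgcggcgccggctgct

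Counted by the leftmost base of the match from the start site, TEF held its E-box at -195, PER1 at -173 and BHLHE40 at -245. This second start of NR1D2 held E-boxes at -155 and -105 and a D-box at -194, and PER3 held a D-box at -177. Windows of 300 bases, with 50 after the start, were searched for all 10 members, 14 windows in all. The E-box variant stood in PER2 at -197, CRY1 at -89, CRY2 at -188 and NR1D1 at -168, PER2 had a D-box at -3, and CRY2 the ROR element at -65. The second TEF start had an E-box of its own at -193. None of these letters stood in the DBP window. The first starts of NR1D2 and CRY2 and the second start of PER3 held none either, so the CRY2 matches belong to its second start. Over all 35116 windows of that length, 7.26% held the E-box, 5.34% its variant, 2.18% the D-box, 1.85% the ROR element and 1.85% the cAMP element. Factor binding was not measured here, and a match is a description of the sequence.

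The PAR bZIP factors gave no common direction. DBP (ENSG00000105516), the output factor with the deepest rhythm in many tissues, read 1.89, 1.18 and 3.27 FPKM with DMSO and 2.66, 1.48 and 2.86 in BDE209. It was higher with BDE209 in replicates 1 and 2 and lower in replicate 3, and DMSO replicate 3 was the highest of all 6 libraries. The log2 difference came to 0.13 (SE 0.294, limma adjusted p = 1.00), and with the block the interval was -0.15 to 0.41. DBP shares 661 exon bases (10.1% of its own) with SPHK2 on the opposite strand, and SPHK2, a sphingosine kinase, read 6.50 to 10.01 FPKM. Strand use in the counting is not given in the sources used here, so reads of that stretch may belong to either gene.

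TEF (ENSG00000167074), a PAR bZIP factor named for its part in thyrotroph cells, read 6.16, 3.41 and 6.45 FPKM with DMSO and 4.84, 3.52 and 5.32 in BDE209. In replicates 1 and 3 the BDE209 values were 0.786 and 0.825 of DMSO, and in replicate 2 the ratio was 1.03. Its log2 difference came to -0.17 (SE 0.247, limma adjusted p = 1.00), or -0.27 (SE 0.0898, adjusted p = 0.141) without replicate 2. HLF, the third PAR bZIP gene, stayed at 0.05 to 0.15 FPKM and was not tested.

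NR1D1 and NR1D2 encode REV-ERB alpha and beta, heme-binding repressors of BMAL1. NR1D1 (ENSG00000126368) read 15.81, 7.55 and 14.14 FPKM with DMSO and 13.96, 6.41 and 14.97 in BDE209. NR1D2 (ENSG00000174738) read 22.89, 11.43 and 21.45 and then 20.08, 11.78 and 18.59. For both, the replicate 2 libraries stood well under the others in either group, and that gap was wider than any difference within a number. NR1D1 was lower in BDE209 in replicates 1 and 2 and higher in replicate 3, for a log2 difference of -0.10 (SE 0.383), and NR1D2 was lower in replicates 1 and 3 and higher in replicate 2, for -0.11 (SE 0.314). Both had a limma adjusted p of 1.00. The NR1D1 gene shares 263 exon bases, 9.49% of its own, with the opposite strand of THRA, the thyroid hormone receptor alpha gene. THRA was higher in every pair, by ratios of 1.31, 1.06 and 1.22, with a log2 difference of 0.24 (SE 0.277, adjusted p = 1.00), and how much of either level comes from the shared stretch was not tested.

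BHLHE40 (ENSG00000134107), an E-box repressor that hypoxia and cytokines also induce, read 46.64, 46.81 and 47.10 FPKM with DMSO and 55.96, 45.25 and 55.81 in BDE209. The DMSO libraries were almost equal, while BDE209 stood higher in replicates 1 and 3 and slightly lower in replicate 2. The log2 difference came to 0.15 (SE 0.136, limma adjusted p = 1.00), and without replicate 2 it was 0.25 (SE 0.0696, adjusted p = 0.0877). Whether the difference departed in replicate 2 was tested across all genes with limma, a test added after the data were seen, in which replicate 2 has 1 library per group and replicates 1 and 3 supply the spread. BHLHE40 gave -0.30 (SE 0.121, adjusted p = 0.434), and 0 of 10 members passed, against 0.615% of all genes. With a single library per group there, this does not show that the differences were alike.

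Beyond the treatment, the set was low in replicate 2. Both replicate 2 libraries lay below the other 4 in 8 of 10 members, or 80.0%, against 42.6% of all genes, and above them in none, against 29.8%. NR1D1 was lowest, at -0.98 log2 units from the mean of replicates 1 and 3, and 3.58% of all genes tested lay lower still. NR1D2 stood at -0.78, PER3 at -0.67, DBP at -0.64 and TEF at -0.58. CRY1, at 0.09, and BHLHE40, at -0.15, stood near the median of all genes, which was -0.10. Transcript length moved with this shift over all genes, and 8 of 10 members lay below the median of their own length group. PER2 did so only just, at -0.42 against -0.40. The longest coding transcripts of NR1D1 (2772 bases), DBP (2229) and CRY1 (3267) fell in a group with a median shift of 0.00, and CRY1 lay above it. Among the activators BMAL1 stood at 0.35, RORA at 0.08, NPAS2 at -0.22 and CLOCK at -0.63. Of the 9 other loop genes 5 lay below and 4 above the median of their length group. The part of transcript length in the members' shift was not tested.

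**Figure D3:**
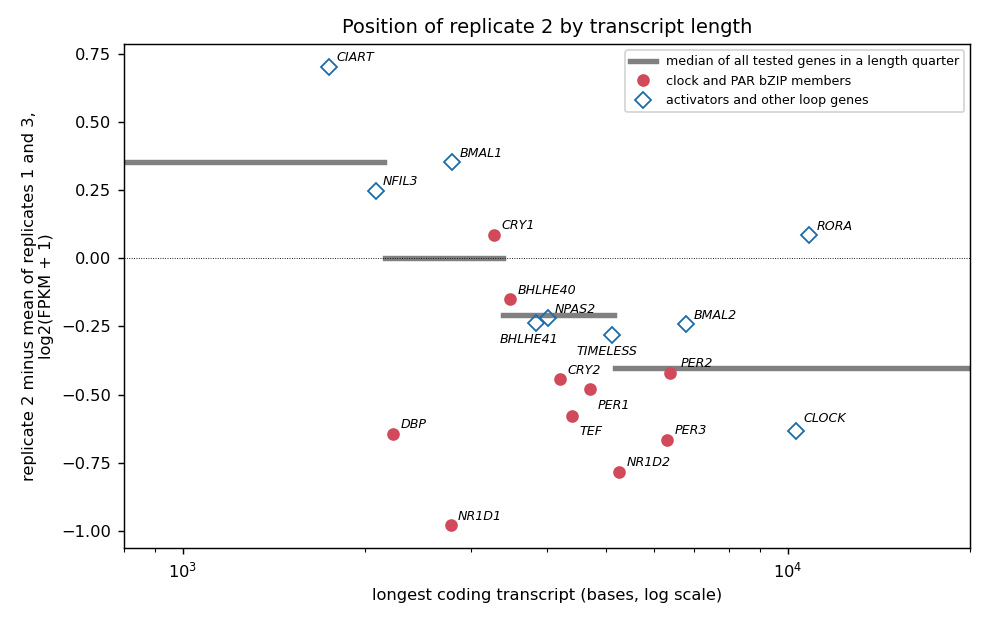
Mean of the replicate 2 libraries minus that of replicates 1 and 3, on the log2(FPKM + 1) scale, against the longest coding transcript in GENCODE v29 (log axis), for the 10 members (red) and 9 tested loop genes (blue). Grey lines are medians of all tested genes in 4 length groups, from 0.35 to -0.40, and NR1D1 lies lowest at -0.98.

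The rest of the clock was read from 41 further genes in 3 groups, 40 of them listed in the files and 36 tested. By limma 0 of the 36 were called over all libraries and 0 with the block, against 0.00% of all genes in both. Without the block 3 (NPAS2, NFIL3 and NAMPT), or 8.33%, had an unadjusted p under 0.05, against 176 of all 11223 genes. With the block 10 did, or 27.8%, against 1847 of all 11223 genes. Without replicate 2, 5 were called as higher, BMAL1, NPAS2, NFIL3, NAMPT and KLF9, or 13.9% against 4.47% of all genes. In all 3 pairs 12 were higher, or 33.3% against 21.9% of all genes, and 6 lower, or 16.7% against 17.3%.

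Among the activators and other genes of the loops, the median difference of the 9 tested was 0.26 log2 units, against 0.01 over all genes, and 0.44, 0.05 and 0.42 in replicates 1, 2 and 3. BMAL1 (listed in older annotations as ARNTL), the indispensable partner of CLOCK, read 3.76, 5.80 and 3.77 FPKM with DMSO and 5.99, 6.64 and 5.36 in BDE209. It was higher in each pair, by ratios of 1.59, 1.14 and 1.42, with the DMSO library of replicate 2 above BDE209 replicate 3. Its log2 difference came to 0.38 (SE 0.180, limma adjusted p = 1.00), or 0.48 (SE 0.0935, adjusted p = 0.0277) without replicate 2.

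NPAS2, which can stand in for CLOCK, read 11.04, 11.60 and 10.28 FPKM with DMSO and 17.33, 11.57 and 17.50 in BDE209. It was more than 1.5 times as high in replicates 1 and 3 and level in replicate 2, for a log2 difference of 0.44 (SE 0.179). Without replicate 2 it passed, at 0.66 (SE 0.0781, limma adjusted p = 0.00475), and the test of replicate 2 against the others did not (adjusted p = 0.124). RORA, the activator at NR1D elements, read 0.59, 1.05 and 0.69 and then 1.20, 1.04 and 1.34, a log2 difference of 0.31 (SE 0.146).

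NFIL3, the D-box repressor that opposes DBP and TEF, read 10.14, 13.54 and 10.58 FPKM with DMSO and 14.37, 16.06 and 14.55 in BDE209. Every BDE209 library stood above every DMSO library, which was true of 3.22% of all genes. Its log2 difference came to 0.37 (SE 0.142, limma adjusted p = 1.00; 0.204 with the block), and 0.44 (SE 0.0760, adjusted p = 0.0183) without replicate 2. CLOCK, named after its values were seen, read 13.45, 9.01 and 14.69 and then 15.83, 9.63 and 16.18, higher in each pair, with a log2 difference of 0.15 (SE 0.258). In the other loop genes tested, also named after their values were seen, directions were mixed. BMAL2 stood at 0.904, 1.07 and 0.808 of DMSO in replicates 1, 2 and 3, and TIMELESS at 0.969, 1.03 and 0.930. BHLHE41 stood at 1.71, 0.832 and 1.73 of DMSO, and CIART at 1.31, 1.04 and 1.32.

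**Figure D4:**
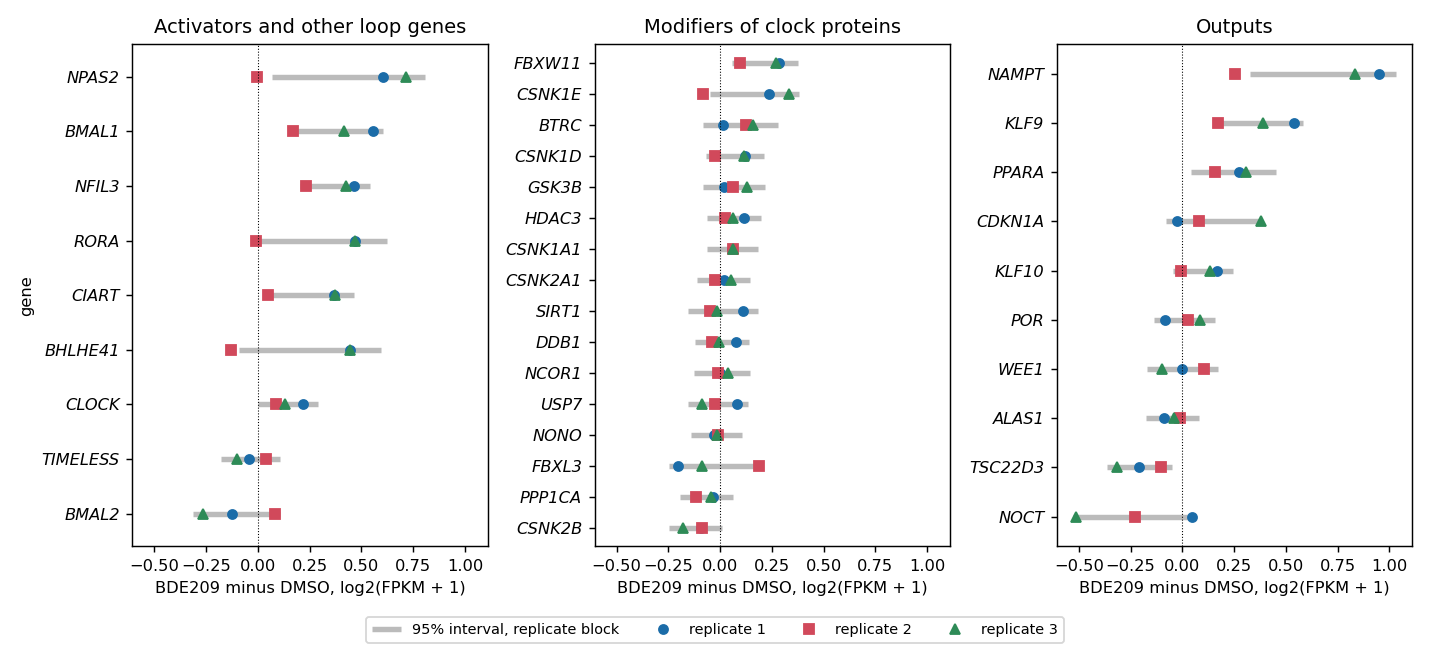
Difference on the log2(FPKM + 1) scale, BDE209 minus DMSO, within replicates 1, 2 and 3 for 35 of the further clock genes tested, with the 95% interval of limma with the replicate block (grey). NPAS2, BMAL1, RORA and NFIL3 lie to the right in replicates 1 and 3, their replicate 2 squares lie nearer 0, and the modifiers of clock proteins cluster around 0.

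Kinases, ligases and cofactors of clock proteins stood close to their controls, with a median difference of 0.02 over 16 tested genes. CSNK1E, a casein kinase that marks PER proteins for decay, had a log2 difference of 0.16 (SE 0.150), with ratios of 1.18, 0.945 and 1.27 in replicates 1, 2 and 3. FBXW11, a ligase subunit that acts on them, was higher in each pair, by 1.23, 1.07 and 1.22, for a log2 difference of 0.22 (SE 0.211, limma adjusted p = 1.00). With the block its interval ran from 0.06 to 0.37 (adjusted p = 0.236). BTRC, its paralogue, was higher in each pair, by at most 1.14, with a log2 difference of 0.10 (SE 0.136). CSNK2B, the regulatory subunit of casein kinase 2, read 185.58 to 208.31 FPKM with DMSO and 174.81 to 183.65 in BDE209, groups that did not overlap, as in 2.00% of all genes. Its log2 difference came to -0.12 (SE 0.148, limma adjusted p = 1.00).

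The outputs went both ways, with a median difference of 0.01 over 11 tested genes. NAMPT, the rate-limiting enzyme of NAD salvage, read 26.72, 41.32 and 25.12 FPKM with DMSO and 52.56, 49.42 and 45.61 in BDE209. All BDE209 values were above all DMSO values, and the log2 difference came to 0.68 (SE 0.209, limma adjusted p = 1.00), or 0.89 (adjusted p = 0.00280) without replicate 2. KLF9, a target of both glucocorticoid and thyroid hormone, was higher in each pair, by 1.53, 1.16 and 1.36, for a log2 difference of 0.37 (SE 0.205, limma adjusted p = 1.00). With the block its interval ran from 0.15 to 0.58 (adjusted p = 0.216). NOCT, a rhythmic phosphatase, had ratios of 1.04, 0.787 and 0.617 and a log2 difference of -0.23 (SE 0.195).

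Genes whose pattern over the 6 libraries lay nearest to DBP and BHLHE40 were ranked by the root mean square difference of their centred log2(FPKM + 1) values. For DBP, whose own SD over the libraries was 0.39, the nearest were LPCAT2 at 0.054, SLC39A9 at 0.076, FAM131C at 0.076, GPR157 at 0.088 and CUL9 at 0.095. LPCAT2, a lysophospholipid acyltransferase, read 5.16, 3.63 and 7.65 FPKM with DMSO and 6.16, 4.26 and 6.55 in BDE209, high in DMSO replicate 3 as DBP was. For BHLHE40, with an SD of 0.14, the nearest were NAPB at 0.019, WDR19 at 0.026, ABI2 at 0.027 and NPEPPS at 0.027. NPEPPS, an aminopeptidase, read 12.66, 11.98 and 12.75 and then 15.25, 12.02 and 14.9, with replicates 1 and 3 higher in BDE209. None of these genes is in the clock lists, and the libraries behind each ranking share the replicate 2 shift.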

How the data were processed

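RNA sequencing of 6 libraries (3 DMSO, 3 BDE209; groups and replicate numbers from the sample titles) was deposited as 1 FPKM value per gene and library, per the file headers. The submitters' processing notes name Bowtie 0.12.2, Bowtie2 and RSEM and the mouse builds mm8 and mm10, although cells and identifiers are human. A human build, strand use and multi-read handling are not given in any source used. Fragment counts are not known. The commonest product of FPKM and transcript length (kb) among low values of short genes, a rough size of 1 fragment, was 0.07 in replicates 1 and 2 and 0.11 (DMSO) and 0.09 (BDE209) in replicate 3, a larger step going with fewer fragments.

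Of 16614 rows, those of 20 repeated identifiers were left out. Of the rest, 16535 had a symbol. limma 3.58.1 (R 4.3.3, trend and robust) was run on log2(FPKM + 1) across 11223 genes, with treatment as the one term, and checked on simulated data. A call needed an adjusted p (Benjamini-Hochberg) under 0.05. Same-numbered libraries deviated together from their group means (correlations across genes of 0.738, 0.875 and 0.824), so the number was added as a block in an alternative. Replicates 1 and 3 also went together across numbers (0.644 and 0.646), and replicate 2 went against both (-0.755 to -0.822). Deviations from a group mean cancel out within the group, so a shared replicate 2 shift by itself brings part of all these correlations. They are not separate observations. By their size the pairing by number was less marked for replicates 1 and 3 than for replicate 2. Lengths came from GENCODE v29 for 99.8% of genes tested (the longest coding transcript, or the longest of any kind), and start regions from RefSeq. Members and lists were chosen with earlier results of these data known. Further genes named were, per list, the called ones or the 4 with the smallest p, the 5 nearest to DBP and BHLHE40, and THRA, which overlaps NR1D1. Some genes under this rule are not reported here. CLOCK, BMAL2, TIMELESS, BHLHE41, CIART, SPHK2, UTS2, the single markers named and the PER3 sequence were chosen outside that rule, knowing their values.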

Additional observations from a re-analysis of the deposited data

How the results depend on the processing

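Over all genes, 0 were called in every fit but 2: without BDE209 replicate 2 it was 1 gene, and without replicate 2 altogether 764, of which 1 was a member (PER3) and 6 were other clock genes. Leaving out single libraries called 0 to 1 genes, and 0 members and 0 other clock genes each time. The replicate block changed no call (0 genes, 0 members), with a smallest adjusted p of 0.0622 and 1847 genes at an unadjusted p under 0.05, against 176 without it, 186 without limma's trend and 68 after scaling libraries to equal sums. The median difference of the members ranged from -0.25 (without DMSO replicate 2) to 0.0709 (without BDE209 replicate 2), against -0.11, and that of the other clock genes from 0.00727 to 0.129, against 0.06, with 0.016 at a minimum FPKM of 5, where 31 remained tested. These libraries carry the replicate 2 shift into 1 group alone. With single libraries left out, 6 members changed direction, with ranges of -0.10 to 0.38 for DBP, -0.27 to 0.0481 for PER1, -0.20 to 0.0799 for PER2, -0.23 to 0.0620 for CRY2, -0.40 to 0.25 for NR1D1 and -0.41 to 0.11 for NR1D2. PER3 (-0.56 to -0.12), TEF, CRY1 and BHLHE40 kept theirs, as did the 12 other genes compared. Of 345 alternative values for 22 genes, 326 kept direction and call, 12 changed direction and 7 passed the threshold, these last all without replicate 2. The median of all genes moved by under 0.1 log2 units under any scaling. Fragment depth is not known beyond the rough step among low values. The counting error of low genes, such as PER1, PER2 and RORA near 1 FPKM, was not estimated.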
